A study of Mus musculus with 18 samples.

Results

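The transcripts described here are 10 long RNAs that carry no known protein product, among them the hosts of small nucleolar RNAs (snoRNAs) and of microRNAs. They were chosen by symbol as the rows Neat1, Malat1, Meg3, H19, Gas5, Snhg1, Snhg12, Snhg15, Mir22hg and Dleu2 of a table of 56691 genes, and all 10 were found. Liver RNA from C57BL/6 mice, labelled wild type, was sequenced in 18 libraries, 6 in each of 3 groups. In sham, anaesthetised mice had a laparotomy without a clip. In ischemia and reperfusion (IR), a clip on the portal triad for 1 h cut off the median and left lobes, about 70% of the liver, and reperfusion lasted 6 h. IR-Ori mice underwent this surgery and received oridonin, a diterpenoid of the herb Isodon rubescens, whose dose, route and time the labels leave out. No sham group with oridonin is among the libraries, and neither age nor sex of the mice is stated. Nor is it stated that each library is a different mouse, and p-values therefore measure the spread between these samples, which may be technical.

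Long noncoding RNAs of this set work in different places. Neat1 is the RNA scaffold of paraspeckles, nuclear bodies that retain proteins and edited RNAs, and Malat1, its neighbour, gathers in nuclear speckles beside splicing factors. Gas5, Snhg1, Snhg12 and Snhg15 are hosts: their introns release snoRNAs, which guide the chemical modification of ribosomal RNA, while the spliced exons are cleared in the cytoplasm by nonsense-mediated decay when they engage ribosomes. Such hosts often begin with a run of pyrimidines at the first base, the signature that also ties the translation of ribosomal protein mRNAs to growth signals. Mir22hg and Dleu2 are the precursors of miR-22 and of miR-15a and miR-16. Meg3 and H19 are expressed from the maternal allele, and H19 is abundant in fetal liver and low in the adult.

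The mature microRNAs of these hosts are shown because they are the products that Mir22hg and Dleu2 are known for, although none was measured here. Sequences are from RefSeq, read 5′ to 3′, with the seed (bases 2 to 8) in capitals.
miR-22-3p: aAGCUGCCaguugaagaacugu
miR-22-5p: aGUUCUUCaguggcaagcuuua
miR-15a-5p: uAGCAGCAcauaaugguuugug
miR-16-5p: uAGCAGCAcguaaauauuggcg
Both Dleu2 products share the seed AGCAGCA, and neither arm of miR-22 has it. The rows of these microRNAs, like every snoRNA and microRNA row inside the 10 transcripts, held 0 counts in all 18 libraries. The data therefore report on the host rows, and whether these include reads of the small RNAs cannot be told.

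Promoters of the 4 snoRNA hosts are printed because these hosts varied together between libraries (below), and that of Meg3 because it holds one of the same motifs. Of the 10 symbols, 8 had an entry among the RefSeq promoters (all but Neat1 and H19). These are on GRCm38.p6, an older build than the GRCm39 of the count table, and each line gives 100 bases before and 50 bases from the annotated start. Capitals mark the CRE motif TGACGTCA, the E-box CACGTG, the TATA motif TATAAA on either strand, and the run of C or T that contains the start. The positions are chr1:161035066-161035215 (plus strand, the second of 2 starts listed) for Gas5, chr19:8723387-8723536 (plus) for Snhg1 and chr4:132308578-132308727 (plus) for Snhg12. They are chr11:6528711-6528860 (minus) for Snhg15 and chr12:109540896-109541045 (plus, the first of 2 starts) for Meg3.
Gas5: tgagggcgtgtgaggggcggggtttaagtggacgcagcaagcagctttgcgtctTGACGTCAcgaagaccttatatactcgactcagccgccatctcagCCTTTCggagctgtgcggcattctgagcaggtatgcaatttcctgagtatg
Snhg1: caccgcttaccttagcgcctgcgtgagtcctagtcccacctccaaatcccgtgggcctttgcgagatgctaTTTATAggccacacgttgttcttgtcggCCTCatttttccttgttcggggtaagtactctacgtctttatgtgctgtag
Snhg12: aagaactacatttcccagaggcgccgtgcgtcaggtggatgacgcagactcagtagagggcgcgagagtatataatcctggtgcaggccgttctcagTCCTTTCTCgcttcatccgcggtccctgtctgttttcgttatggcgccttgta
Snhg15: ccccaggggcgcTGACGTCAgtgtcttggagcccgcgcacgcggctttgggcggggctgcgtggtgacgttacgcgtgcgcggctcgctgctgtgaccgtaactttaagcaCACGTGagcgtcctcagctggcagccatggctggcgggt
Meg3: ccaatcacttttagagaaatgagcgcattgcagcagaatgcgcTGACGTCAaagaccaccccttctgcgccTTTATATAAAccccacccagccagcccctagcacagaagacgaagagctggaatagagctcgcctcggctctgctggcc
The pyrimidine run was 9 bases long in Snhg12, 6 in Gas5 and 4 in Snhg1, and Snhg15 had none at its listed start. The first Gas5 start, not printed, had no run and none of the motifs searched, and the second Meg3 start held none of the motifs. Among 32851 RefSeq promoters, 14% had a run of at least 4 over the start, 7.25% of at least 6 and 3.03% of at least 9. Motifs were searched on both strands over the 300 bases from 250 before to 50 after the start. The CRE motif, bound by CREB and ATF factors, began at -46 in Gas5, at -88 in Snhg15 and at -57 in Meg3, and 1.79% of all promoters hold it. An E-box lay at 12 in Snhg15 and at -178 in Dleu2 (7.15% of promoters). The TATA motif was found in Meg3, Snhg1 and Dleu2 (13.6% of promoters). Neither the heat shock element (3 alternating units of GAA and TTC with 2 bases between units, 0.603% of promoters) nor the AP-1 motif TGANTCA (7.81%) was present in any of the 8 members with an entry. A match in these letters is a description and not a binding site.

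Libraries held 12449529 to 19798188 counts, and the 10 transcripts took 0.118% to 0.426% of the counts of nuclear genes. Counts on the mitochondrial chromosome made up 6.53% (IR 6) to 42.9% (IR 1) of a library. The share's mean ± SD over 6 libraries was 21.9 ± 12.9% for sham, 19.2 ± 12.99% for IR and 27.1 ± 6.60% for IR-Ori. Group differences lay within the spread (smallest two-sided exact permutation p = 0.212, for IR-Ori and IR, 0.555 adjusted over the 3 comparisons). Sham 2 and IR 1 stood apart at 42.8% and 42.9%, and so did IR-Ori 5, at 14.1% in a group otherwise between 26.8% and 32.03%. For the tissue label, 9 hepatocyte markers summed to 14610 to 49870 FPKM over the 18 libraries, with 0 of 9 called between groups by edgeR, DESeq2 or limma and 0 at an unadjusted p under 0.05.

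Levels are given as FPKM, counts scaled by exon length and library total, which allow genes to be set side by side. Over the 18 libraries Malat1 led with a mean of 88.4 FPKM, followed by Mir22hg (82.2), Gas5 (51.3), Neat1 (41.8), Snhg1 (14.8), Snhg12 (11.9), Snhg15 (4.26), Dleu2 (2.34), Meg3 (0.214) and H19 (0.025). The order of neighbours was not always clear. Malat1 was above Mir22hg in 10 of 18 libraries, whereas Neat1 was above Snhg1, and Snhg12 above Snhg15, in all 18. H19 gave 21 counts in all, at most 8 in a library and 0 in 11 of 18. It did not pass the count filter, so its values (highest 0.15 FPKM for sham, 0.08 for IR, 0.02 for IR-Ori) enter no test, and 9 of the 10 transcripts were tested. Their FPKM in each group overlapped in every pair of groups.

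**Figure D1:**
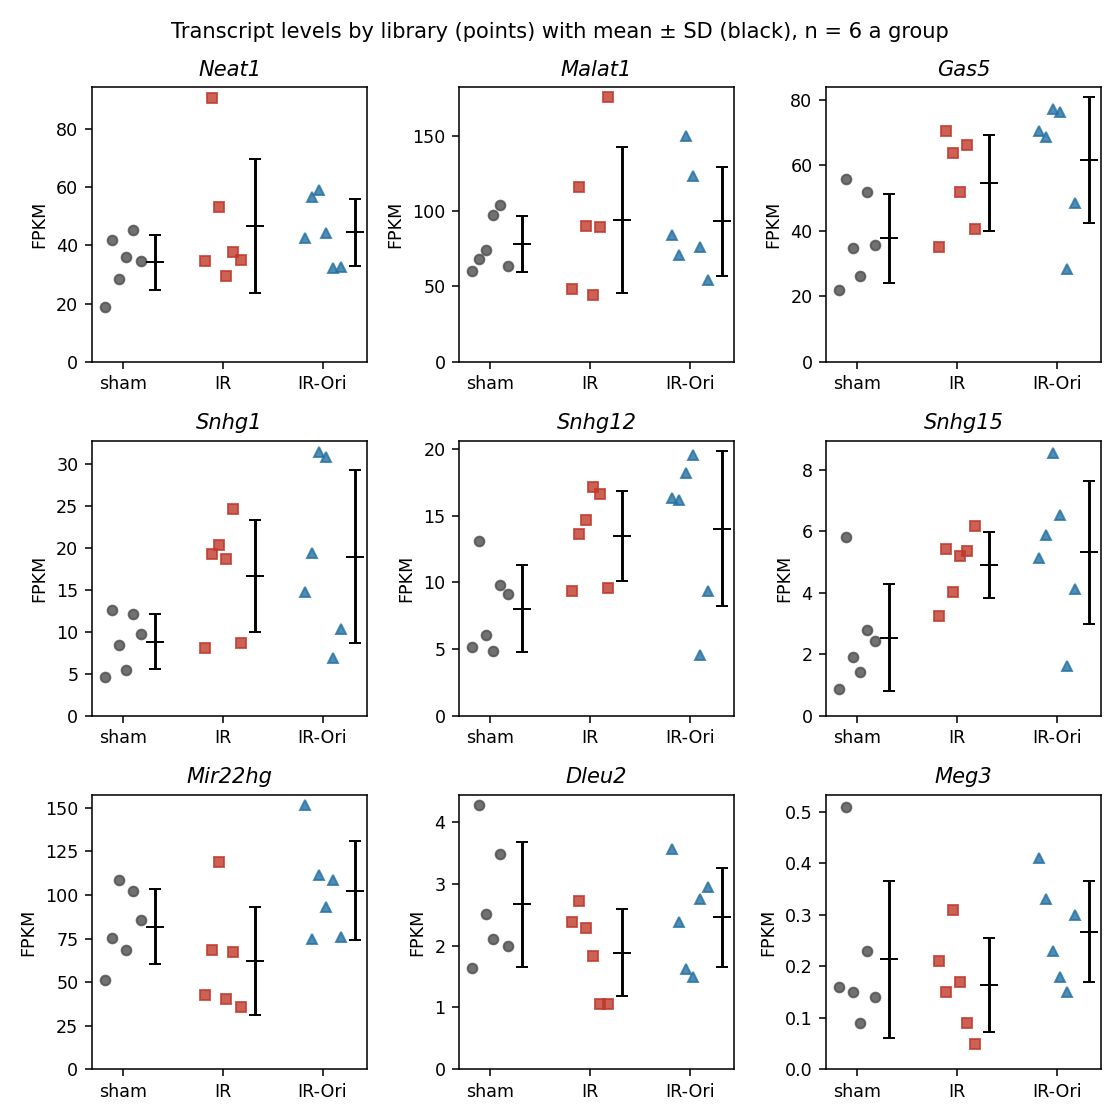
Level of the 9 tested transcripts in FPKM (vertical axis, from 0) in the 6 libraries of each group (points), with the mean and SD in black. The groups overlap in every panel, and the lowest IR-Ori point of the snoRNA hosts is IR-Ori 5 (28.3 FPKM for Gas5).

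Setting IR beside sham asks how these transcripts respond to ischemia and reperfusion. None of the 9 was called by edgeR at an adjusted p under 0.05, beside 7.89% of the 14595 genes tested (5.52% higher and 2.36% lower). At an unadjusted p under 0.05, 3 of 9 were higher and 0 lower, where 23.5% of all genes passed in either direction, and DESeq2 and limma called 0. Fitted log2 fold changes were above 0 for 6 members and below 0 for 3, with a median of 0.37 beside 0.0032 over all genes.

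The 3 were snoRNA hosts. Snhg15, host of a box H/ACA snoRNA (GRCm39 chr11:6475295-6478841, minus strand), was at 0.87 to 5.83 FPKM in sham (median 2.18) and at 3.25 to 6.19 in IR (median 5.29). Sham 2, the sham library with the largest mitochondrial share, was the single sham value above the IR median, and IR was higher in 31 of 36 pairs of libraries. The log2 fold change was 0.87 ± 0.39 (SE; 95% interval 0.062 to 1.68; edgeR adjusted p = 0.176). Snhg1 (chr19:8700801-8703811, plus strand), which hosts a row of box C/D snoRNAs, was at 4.62 to 12.7 FPKM in sham (median 9.06) and at 8.10 to 24.6 in IR (median 19.01). IR 1 and IR 6 lay within the sham range and the other 4 IR libraries above it, and the log2 fold change was 0.78 ± 0.35 (edgeR adjusted p = 0.183). Snhg12 (chr4:132035932-132038762, plus strand) was at 4.83 to 13.1 FPKM in sham (median 7.59) and at 9.38 to 17.2 in IR (median 14.2). IR was higher in 32 of 36 pairs, and the log2 fold change was 0.65 ± 0.31 (edgeR adjusted p = 0.205). Gas5, named for its rise in growth-arrested cells (chr1:160861992-160866116, plus strand), was at 21.9 to 55.7 FPKM in sham (median 35.3) and at 35.0 to 70.6 in IR (median 57.7; log2 fold change 0.44 ± 0.26, edgeR adjusted p = 0.335).

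The same comparison was made within ranges of the mitochondrial share. Among libraries with a share under 15% (sham 1, 3 and 4 against IR 4, 5 and 6) Snhg15 was higher in IR by 1.91 ± 0.33 on the log2 scale, Snhg12 by 1.30 ± 0.22 and Snhg1 by 1.33 ± 0.32 (edgeR adjusted p = 0.0123, 0.0116 and 0.0362). The value for Gas5 was 0.80 ± 0.23 (edgeR adjusted p = 0.0582), and 11.6% of all genes tested there were called. Among the other libraries (sham 2, 5 and 6 against IR 1, 2 and 3) the same differences were 0.16 ± 0.32, 0.19 ± 0.21 and 0.40 ± 0.26, and no member passed, where 0.82% of all genes did. The calls thus fell over all genes and not for the hosts alone. The difference between IR and sham in the slope on the share, fitted below, was not called for any of the 4 hosts (edgeR adjusted p = 0.193 for Snhg15, 0.314 for Snhg12, 0.373 for Gas5 and 0.474 for Snhg1). With the share as a term in the fit of all 18 libraries, Snhg15 (1.24 ± 0.36, edgeR adjusted p = 0.0297) and Snhg12 (0.86 ± 0.27, edgeR adjusted p = 0.0418) were higher in IR and Snhg1 was not called (0.94 ± 0.35, edgeR adjusted p = 0.0780), where 12.8% of all genes were called. Leaving out sham 2 alone gave 1.26 ± 0.34 for Snhg15 (edgeR adjusted p = 0.0337). Each group holds 3 libraries in either range of the share.

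Mir22hg, Dleu2 and Meg3 had lower fitted values in IR, none of them called. Mir22hg, precursor of miR-22 (chr11:75352365-75357502, plus strand), was at 51.2 to 108.4 FPKM in sham (median 80.5) and at 36.0 to 118.7 in IR (median 55.1). IR 3 was the highest of these 12 libraries and the other 5 IR libraries stood at 68.2 or below. The log2 fold change was -0.48 ± 0.26 (edgeR adjusted p = 0.268), and without IR 3 it was -0.77 ± 0.23 and passed (edgeR adjusted p = 0.0414). Dleu2 (chr14:61840265-61919822, minus strand) was at 1.64 to 4.28 FPKM in sham (median 2.31) and at 1.05 to 2.73 in IR (median 2.06; log2 fold change -0.53 ± 0.30, edgeR adjusted p = 0.291). Meg3 (chr12:109506879-109538165, plus strand) was at 0.09 to 0.51 FPKM in sham (median 0.155) and at 0.05 to 0.31 in IR (median 0.16; log2 fold change -0.43 ± 0.43, edgeR adjusted p = 0.592). Its direction rested on sham 2, without which the value was 0.024.

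Both nuclear scaffolds varied as much within groups as between them. Neat1 (chr19:5874736-5895898, minus strand) was at 18.8 to 45.3 FPKM in sham (median 35.2) and at 29.4 to 90.7 in IR (median 36.3). IR 2 stood far above the other IR libraries, and the log2 fold change was 0.37 ± 0.29 (95% interval -0.23 to 0.97; edgeR adjusted p = 0.470). Malat1 (chr19:5845717-5852704, minus strand) was at 60.4 to 104.3 FPKM in sham (median 71.2) and at 44.3 to 175.6 in IR (median 89.5), with a log2 fold change of 0.22 ± 0.33 (95% interval -0.46 to 0.90; edgeR adjusted p = 0.733). IR libraries held both the lowest (IR 4) and the highest (IR 6) Malat1 level of all 18. Malat1 ends in a triple helix and not a poly(A) tail, as does the long form of Neat1, and whether the libraries selected poly(A) RNA is not stated.

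**Figure D2:**
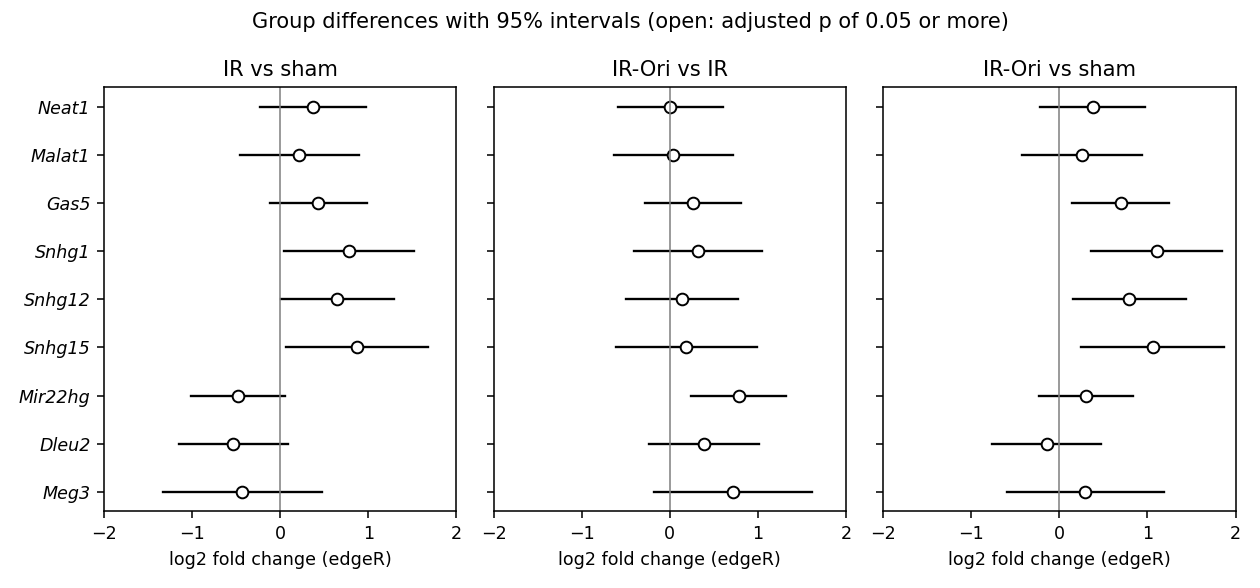
Log2 fold change of each tested transcript (horizontal axis, edgeR) with its 95% interval in the 3 comparisons of groups. All symbols are open, since no adjusted p was under 0.05, and the interval of Mir22hg for IR-Ori against IR runs from 0.24 to 1.32.

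Setting IR-Ori beside IR asks whether oridonin altered these transcripts after reperfusion. It shares the IR libraries with the comparison above. Again 0 of 9 members were called by edgeR, beside 3.6% of the 14595 genes (0.596% higher and 3.01% lower). Mir22hg alone was higher at an unadjusted p under 0.05 (24.2% of all genes, either direction). Mir22hg stood at 75.0 to 151.5 FPKM in IR-Ori (median 100.7) and at 36.0 to 118.7 in IR (median 55.1). All 6 IR-Ori libraries lay above 5 of the 6 IR libraries and IR 3 lay among them, with IR-Ori higher in 31 of 36 pairs. The log2 fold change was 0.78 ± 0.26 (95% interval 0.24 to 1.32; edgeR adjusted p = 0.0866). DESeq2 called it (0.80 ± 0.27, DESeq2 adjusted p = 0.0389, where 7.89% of the genes it tested were called), limma did not (0.79 ± 0.28, limma adjusted p = 0.125), and without IR 3 edgeR gave 1.09 ± 0.23 (edgeR adjusted p = 0.0108). Mir22hg had no relation past the threshold to the mitochondrial share, and among libraries with a share of 15% or more the difference was 0.45 ± 0.29 (edgeR adjusted p = 0.566). Over most of its length Mir22hg lies on the same strand as Tlcd2, whose value was -0.33 ± 0.34 (edgeR adjusted p = 0.561).

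The other members were close in both groups or spread widely. Gas5 was at 28.3 to 77.2 FPKM in IR-Ori (median 69.5; log2 fold change 0.26 ± 0.26, edgeR adjusted p = 0.544). Snhg1 was at 6.91 to 31.4 (median 17.1), Snhg12 at 4.55 to 19.6 (median 16.2) and Snhg15 at 1.63 to 8.56 (median 5.51), with log2 fold changes of 0.32 ± 0.35, 0.14 ± 0.30 and 0.19 ± 0.38. IR-Ori 5 was the lowest library of its group for all 4 hosts, and for each of them it lay below every IR library. Neat1 was at 32.1 to 58.9 FPKM in IR-Ori (median 43.4; log2 fold change 0.0060, 95% interval -0.59 to 0.60). Malat1 was at 54.3 to 150.0 (median 80.3; 0.040, 95% interval -0.64 to 0.72). Both point values are near 0, and the intervals give the size of change these libraries could not resolve. Dleu2 was at 1.49 to 3.57 FPKM (median 2.57; log2 fold change 0.39 ± 0.30) and Meg3 at 0.15 to 0.41 (median 0.265; 0.72 ± 0.43, edgeR adjusted p = 0.301).

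Between IR-Ori and sham 0 of 9 members were called, as was 0% of the 14595 genes (edgeR). At an unadjusted p under 0.05 all 4 snoRNA hosts were higher and no member lower, where 10% of all genes, 1460 in number, passed. DESeq2 called 36 genes, no member among them, and limma 0. Snhg1 had the smallest p of the 9 (log2 fold change 1.10 ± 0.36, edgeR adjusted p = 0.446), followed by Snhg15 (1.06 ± 0.39, edgeR adjusted p = 0.492), Gas5 (0.70 ± 0.26, edgeR adjusted p = 0.492) and Snhg12 (0.79 ± 0.31, edgeR adjusted p = 0.494). Pairs of libraries with the higher level in IR-Ori numbered 30 of 36 for Snhg1, Snhg15 and Gas5 and 28 for Snhg12. IR-Ori also had the larger mean mitochondrial share, by 5.22 percentage points. With the share as a term the differences were nearly as large, at 1.02 ± 0.34 for Snhg1, 0.99 ± 0.34 for Snhg15, 0.68 ± 0.26 for Snhg12 and 0.60 ± 0.23 for Gas5, with no call (edgeR adjusted p from 0.412 to 0.433). With the other comparisons these differences share libraries and are not separate evidence.

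The members' relation to the mitochondrial share was fitted within the 3 groups together, on counts of nuclear genes scaled without the mitochondrial rows. Of the 9, 5 were higher in libraries with a larger share and 0 lower, beside 42.5% of the 14639 nuclear genes tested (20.3% higher and 22.3% lower). Meg3 rose by 0.57 ± 0.11 on the log2 scale per 10 percentage points of share (edgeR adjusted p = 0.000688) and Dleu2 by 0.34 ± 0.085 (edgeR adjusted p = 0.00377). Snhg15 rose by 0.38 ± 0.14, Snhg12 by 0.31 ± 0.11 and Gas5 by 0.26 ± 0.095 (edgeR adjusted p = 0.0327, 0.0310 and 0.0367). Neat1 (0.24 ± 0.11, edgeR adjusted p = 0.0753), Snhg1 (0.23 ± 0.15, edgeR adjusted p = 0.219), Mir22hg (0.07 ± 0.11, edgeR adjusted p = 0.637) and Malat1 (-0.12 ± 0.13, edgeR adjusted p = 0.470) were not called. The calls of Snhg15 and Snhg12 were lost without sham 1, 2, 3 or 4 or IR-Ori 5, and that of Gas5 without sham 1, 2 or 4, IR 6 or IR-Ori 5. In these fits the value of Snhg12 was 0.22 to 0.30 and that of Gas5 0.19 to 0.25. That of Snhg15 was 0.29 to 0.39, except without sham 2, where it was 0.21 ± 0.16 (edgeR adjusted p = 0.333). The 6 sham libraries alone called 6 members higher, the same 5 and Snhg1, beside 39.5% of the 12251 genes tested. The 6 IR or 6 IR-Ori libraries alone called 0 members, where 5 of 11991 and 0 of 11982 genes were called. Leaving out IR 1 instead called Neat1 (0.36 ± 0.12, edgeR adjusted p = 0.0225) and Snhg1 (0.45 ± 0.16, edgeR adjusted p = 0.0262). Meg3 and Dleu2 passed whichever single library was left out, and without both libraries over 40% Dleu2 did not (0.33 ± 0.15, edgeR adjusted p = 0.0989). Cell type markers were called in this fit too, in counts to be read beside the 20.3% of all genes higher and 22.3% lower. With a larger share 3 of 9 hepatocyte markers, 4 of 10 Kupffer cell markers, 3 of 5 erythroid markers and 2 of 10 endothelial markers were lower. Higher were 0, 1, 1 and 0 of these lists and 2 of 6 B cell markers. Of 10 stellate markers 3 were higher and 2 lower, and of 9 cholangiocyte markers 1 was higher and 1 lower. Of 9 neutrophil markers 1 was higher, and of 9 monocyte markers 1 was lower. Their part in the members' values was not tested.

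**Figure D3:**
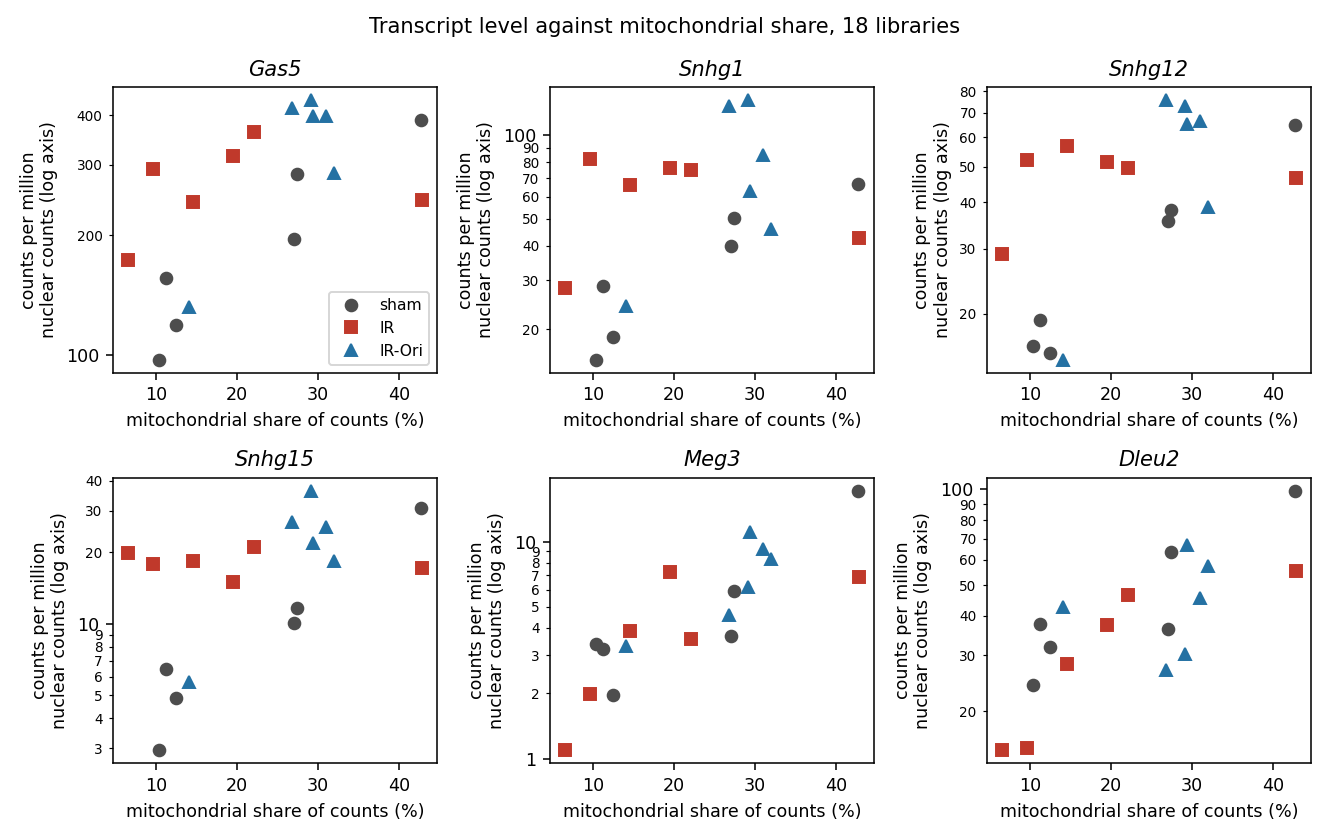
Nuclear CPM, the count scaled by the library's total over nuclear genes (vertical, log axis), against the mitochondrial share of each library (horizontal, %) for 6 transcripts, with 1 point per library and the group by symbol. Sham points climb for the 4 snoRNA hosts, from 2.93 at a share of 10.3% to 30.7 at 42.8% for Snhg15, while the IR points of Snhg15 stay between 15.04 and 21.01.

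In the plot of levels against the share, the snoRNA hosts seemed not to follow it alike in each group, a difference that the fits did not call. In nuclear CPM, the count scaled by the library's total over nuclear genes, Snhg15 went from 2.93 in sham 1 (share 10.3%) to 30.7 in sham 2 (42.8%). In IR it lay between 15.04 and 21.01 whether the share was 6.53% or 42.9%. In IR-Ori it was 5.70 in IR-Ori 5 (14.1%) and 18.3 to 36.4 in the other 5. With 1 slope per group, an alternative added after seeing the data, the slope of Snhg15 was 0.67 ± 0.13 in sham (edgeR adjusted p = 0.00174), -0.12 ± 0.13 in IR and 1.09 ± 0.33 in IR-Ori. Those of Snhg12 were 0.46 ± 0.12, -0.011 ± 0.13 and 1.00 ± 0.30, and those of Gas5 0.37 ± 0.11, -0.0056 ± 0.12 and 0.72 ± 0.26. None of the differences between slopes was called. That of Snhg15 between IR and sham was -0.79 ± 0.19 (edgeR adjusted p = 0.193, where 0.0205% of the genes passed). IR-Ori 5 is the single IR-Ori library with a share outside 26.8% to 32.03%. Meg3 had slopes near each other in the 3 groups (0.58 ± 0.16, 0.50 ± 0.20 and 0.69 ± 0.37), and so had Dleu2 in sham and IR (0.34 ± 0.12 and 0.45 ± 0.13) but not in IR-Ori (0.0038 ± 0.24).

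**Figure D4:**
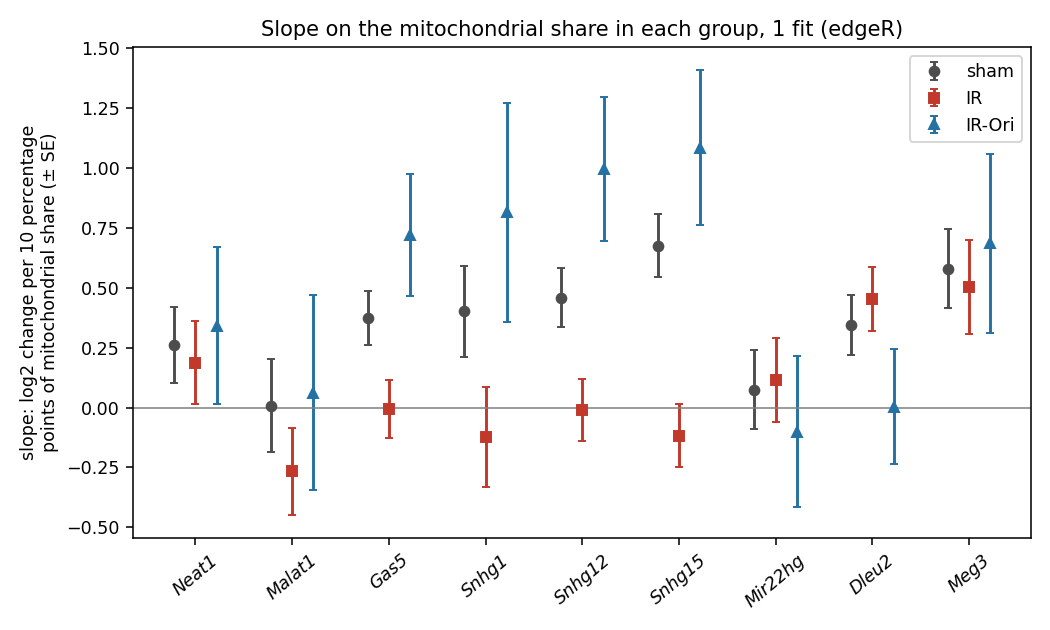
Slope of each tested transcript on the mitochondrial share (vertical, log2 change per 10 percentage points, with SE) in each group, from 1 edgeR fit of 18 libraries. The IR slopes of Gas5, Snhg1, Snhg12 and Snhg15 lie between -0.12 and -0.0056, and the sham and IR-Ori slopes of these 4 lie between 0.37 and 1.09.

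The 4 snoRNA hosts varied together between libraries. With group means removed, the correlation of their log2 levels over 18 libraries was 0.92 for Gas5 and Snhg12, 0.91 for Gas5 and Snhg1, 0.89 for Snhg1 and Snhg12, 0.88 for Gas5 and Snhg15, 0.86 for Snhg12 and Snhg15 and 0.76 for Snhg1 and Snhg15. These libraries also share the differences in mitochondrial share and depth, so the values are descriptions. Meg3 and Dleu2 followed each other at 0.75 and the neighbours Neat1 and Malat1 at 0.49, and Malat1 ran against Meg3 (-0.39) and Dleu2 (-0.31). Neat1 was closer to Gas5 (0.69), Snhg15 (0.57) and Snhg1 (0.55) than to Malat1, and stood at 0.48 with Snhg12. Meg3 was at 0.51 with Snhg12 and at 0.50 with Gas5. Among 10652 nuclear genes with a mean of at least 1 FPKM, the profile closest to Gas5 over the 18 libraries was that of Ddx20 (Pearson r = 0.96), followed by Snhg1 and Snhg12 (both 0.93). Closest to Snhg1 was Zfas1, another snoRNA host (0.95), to Snhg12 the decapping factor gene Edc4 (0.96) and to Snhg15 the elongation factor gene Supt5 (0.93). For Meg3 it was Trim12a (0.94), for Dleu2 Zmynd15 (0.93), for Mir22hg 1700048M11Rik (0.87), for Malat1 Arnt (0.86) and for Neat1 Abcf3 (0.85).

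Neat1 and Malat1 lie next to each other on 1 strand, and the ratio of their counts within a library does not depend on its scaling. Sham libraries ranged from 0.94 to 1.86, IR libraries from 0.60 to 2.37 and IR-Ori libraries from 1.09 to 2.43. IR 6, with the smallest mitochondrial share, had the lowest ratio, and the ranges overlapped. Mean log2 ratios were 0.38 ± 0.37, 0.64 ± 0.74 and 0.58 ± 0.43 (SD, n = 6 each). In two-sided exact permutation tests, which allow no p below 0.0022, IR and sham gave p = 0.468 (0.701 adjusted over 3 comparisons). IR-Ori and IR gave an exact p = 0.883 (adjusted 0.883), and IR-Ori and sham an exact p = 0.426 (adjusted 0.701). Leaving out IR 6 widened the first difference from 0.26 to 0.53 (exact permutation p = 0.0455, not adjusted).

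**Figure D5:**
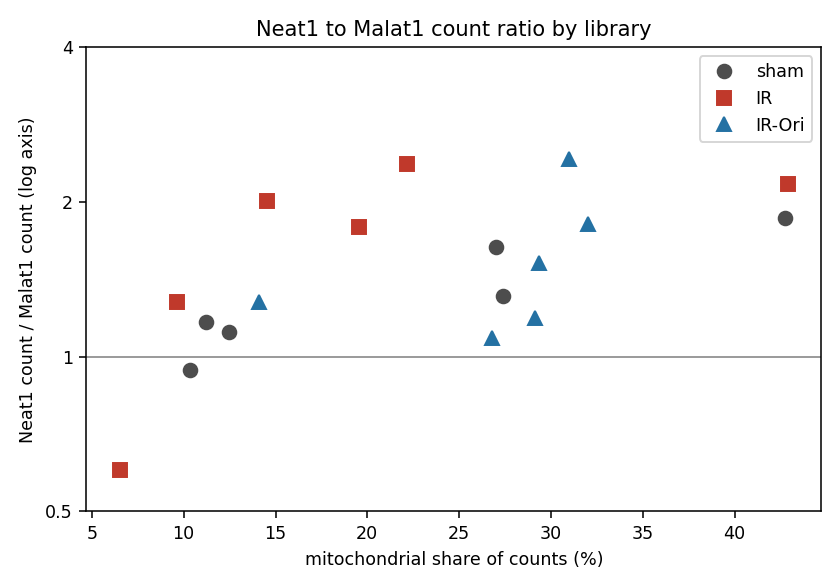
Ratio of Neat1 to Malat1 counts (vertical, log axis) against the mitochondrial share of the library (horizontal, %), with 1 point per library and the group by symbol. IR 6 is lowest at 0.60, the other IR libraries lie between 1.28 and 2.37, and the groups overlap.

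Counting limits what a host row says. The exons merged over the transcripts of Snhg1 and Snhg12 span the whole gene (3011 of 3011 and 2831 of 2831 bases) and those of Gas5 4001 of 4125, so unspliced precursor and spliced exons count alike. Of 55 other rows that overlap the 10 transcripts, 45 held 0 counts and 6 were tested. The table lists 145 rows named as snoRNAs, 94 of them at 0. No source used here gives the strand setting of the counting, so reads of antisense pairs cannot be told apart. Gas5 overlaps the antisense gene Zbtb37 by 428 bases. Zbtb37 had values of -0.75 ± 0.47 in IR against sham and 1.28 ± 0.47 in IR-Ori against IR, called in neither (edgeR adjusted p = 0.347 and 0.116). In the fit on the mitochondrial share, which called Gas5, Zbtb37 was called higher too (0.59 ± 0.15, edgeR adjusted p = 0.00322). Dleu2 overlaps Trim13 and Kcnrg in antisense, Neat1 overlaps Frmd8os by 248 bases, and none of these was called in a comparison of groups.

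Other transcripts of these classes gave the following counts. The list of other noncoding snoRNA hosts had 15 tested rows, which include Rpph1, an RNA that is not a snoRNA host. Of the 15, 1 was higher in IR than in sham, Snhg5 (3.26 to 7.10 FPKM on average, log2 fold change 1.00 ± 0.29, edgeR adjusted p = 0.0419), and 0 lower. DESeq2 called Snhg5 and limma did not. In IR-Ori against IR edgeR and limma called 0 of the 15 and DESeq2 2. At an unadjusted p under 0.05, 3 were higher and 1 lower, where 24.2% of all genes passed in either direction. The lower one was Rpph1 (-1.20 ± 0.57, edgeR adjusted p = 0.206). With a larger mitochondrial share 7 of the 15 rose, among them Snhg20, Dancr and also Rpph1, and 0 fell. In that fit 20.3% of all genes rose and 22.3% fell. Of 26 other long noncoding transcripts, Mirt1 was higher in IR (1.48 ± 0.44), and Hnf1aos1 (-1.29 ± 0.30) and Hnf4aos (-1.33 ± 0.36), antisense neighbours of hepatocyte transcription factor genes, were lower. Xist was lower too (-2.78 ± 0.66), from a mean of 0.118 FPKM in sham. DESeq2 called all 4. Limma called Hnf1aos1 and not Hnf4aos, and Mirt1 and Xist were below its filter. In IR-Ori against IR edgeR and limma called 0 of the 26 and DESeq2 1. At an unadjusted p under 0.05, 7 were higher and 1 lower, beside the same 24.2% of all genes. In the fit on the mitochondrial share 10 rose and 1 fell, beside the same 20.3% and 22.3% of all genes. The lists' medians in IR against sham were 0.30 and 0.20, beside 0.0032 over all genes.

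Genes of the proteins that work with these RNAs were measured beside them, as RNA and not as protein. Core snoRNP proteins bind and modify with the snoRNAs. Of their 12 genes, 3 were higher in IR: Nop58 (3.20 to 7.48 FPKM, log2 fold change 1.12 ± 0.25, edgeR adjusted p = 0.0108), the assembly factor gene Naf1 (1.21 ± 0.33) and Gar1 (1.31 ± 0.38). With oridonin 2 of 12 were lower than in IR, Naf1 (-1.30 ± 0.33, edgeR adjusted p = 0.0352) and Nhp2 (-1.06 ± 0.29, edgeR adjusted p = 0.0497). DESeq2 made these calls too, and limma made that of Nop58 alone. The median of the 12 was 0.69 in IR against sham and -0.76 in IR-Ori against IR. With the mitochondrial share 7 of the 12 fell and 1 rose, beside 22.3% and 20.3% of all genes. Of 20 protein-coding snoRNA hosts, the chaperone gene Hspa8 was higher in IR (1.34 ± 0.39) and lower with oridonin (-1.54 ± 0.39), by edgeR and DESeq2 and not by limma. Of these hosts 10 fell and 2 rose with the share, beside the same percentages of all genes. None of 19 paraspeckle protein genes was called between groups by edgeR, DESeq2 or limma. In IR against sham 3 were higher and 1 lower at an unadjusted p under 0.05, where 23.5% of all genes passed in either direction. Of 20 speckle and SR protein genes, 10 were higher and 1 lower in IR-Ori than in IR at an unadjusted p under 0.05. At that threshold 24.2% of all genes passed in either direction. The median log2 fold change of the 20 was 0.42, beside -0.00017 over all genes. edgeR called the lower one alone, Srsf9 (-0.76 ± 0.19, edgeR adjusted p = 0.0314), and DESeq2 called 1 higher and 1 lower. Of 15 decay factor genes, Magoh was higher (0.58 ± 0.17) and Smg6 lower (-0.66 ± 0.17) in IR than in sham. Among 12 imprinted genes tested, Peg10 was higher in IR (2.22 ± 0.52) and lower with oridonin (-2.10 ± 0.52), also by DESeq2, and it was below limma's filter.

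Markers of some cell types moved with the groups. Summed over 10 neutrophil markers, sham libraries stood at 4.03 to 27.1 FPKM, IR libraries at 69.5 to 315.6 and IR-Ori libraries at 7.73 to 64.8, and 9 of the 9 tested were higher in IR than in sham. With oridonin edgeR called 2 of these 9 lower, DESeq2 6 and limma 4. Of 9 monocyte markers tested 7 were higher in IR and 7 lower with oridonin by edgeR (2 and 1 by limma), with sums of 60.3 to 129.0, 117.6 to 179.1 and 83.2 to 127.0 FPKM. No marker of either list was at 0 in all 18 libraries. Of 10 Kupffer cell markers edgeR, DESeq2 and limma called 0 in IR against sham, and 0 had an unadjusted p under 0.05. Of 10 endothelial markers 3 were higher in IR by all 3 tools, Cdh5 (1.52 ± 0.30), Lyve1 (2.46 ± 0.58) and Pecam1 (0.97 ± 0.24), and edgeR called 0 with oridonin. The summed endothelial level was 20.1 to 56.5 FPKM for sham, 33.9 to 72.2 for IR and 22.7 to 49.7 for IR-Ori. The stellate marker Pdgfrb (1.07 ± 0.20, 1 of 10) and the cholangiocyte marker Sox9 (3.88 ± 0.67, 1 of 9) were higher in IR, and Sox9 was lower with oridonin (-3.24 ± 0.64). Of 6 B cell, 2 T and NK cell and 5 erythroid markers tested edgeR called 0 in any comparison of groups. DESeq2 called 2 erythroid markers lower with oridonin than in IR. In whole liver, a change in the number of cells that hold a transcript and a change in its amount per cell cannot be told apart, and the part of these cells in the members' values was not tested. Heat shock factor targets (9 of 10 higher in IR, 10 of 10 lower with oridonin) and immediate early genes (10 of 11 and 9 of 11) were called in the same fits, which called no member.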

How the data were processed

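RNA of mouse liver was sequenced in 18 libraries. Per the submitters' processing notes, cutadapt 1.9.1 and HISAT2 2.2.1 were used with GRCm39, and DESeq2 is listed too. Which tool counted, on which strand and with which annotation is not given in the sources used here. A whole-number count per gene, not scaled, and FPKM are what the authors deposited. Count divided by gene size and library total returned 100% of the deposited FPKM within 0.0051, so the FPKM total includes the 37 mitochondrial rows, and nuclear FPKM fall where these take more counts. Total counts per library set the counting error, and the spread between libraries (common biological coefficient of variation 0.398) was larger.

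Tests used edgeR 4.0.16 (R 4.3.3). Its filterByExpr (minimum count 10, minimum total 15) kept 14595 of 56691 genes, TMM scaled the libraries, and 1 quasi-likelihood model with the 3 groups was fitted to all 18. Tests were two-sided with Benjamini-Hochberg adjustment over all genes tested and a threshold of 0.05. The relation to the mitochondrial share used group plus share, with the mitochondrial rows left out (14639 genes). The code was checked on simulated counts. Nuclear CPM leaves mitochondrial rows out of the total. The count ratio of Neat1 to Malat1 had 0.5 added to each count. Alternatives were DESeq2 1.42.0, limma 3.58.1 on log2(FPKM + 1) and log2(FPKM + 0.1) for genes of at least 1 FPKM in at least 6 libraries, other scalings, no filter, the share as a term, libraries under and from 15%, and each library left out.

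The members and the gene lists were chosen with earlier results of these data known. The text names all members, up to 4 genes of a list with the smallest p in a comparison, rows that overlap a member, and the genes most like a member by Pearson r. Promoters and microRNAs came from RefSeq tables on GRCm38.p6 and were matched by symbol.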

Additional observations from a re-analysis of the deposited data

Results flagged for a closer look

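Of 36 groups of 6 libraries checked for a library far from the others (10 transcripts in FPKM and the mitochondrial share among the values), 2 held one, and chance flags about 1 in 20. Meg3 was at 0.51 FPKM in sham 2, beside 0.09 to 0.23 in the other sham libraries. Sham 2 also has the largest mitochondrial share of its group (42.8%). The share itself was 14.1% in IR-Ori 5, beside 26.8% to 32.03% in the rest of IR-Ori. IR-Ori 5 had the lowest level of its group for Neat1, Meg3, Gas5, Snhg1, Snhg12 and Snhg15. The part of the share in these levels was not tested.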

How the results depend on the processing

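In the comparisons of groups edgeR called no member, and the exceptions under other settings were as follows. For IR against sham 2 members were higher with the mitochondrial share as a term, 3 among libraries under 15% (where 1638 of 14149 genes were called) and 1 (Snhg15) without both libraries over 40%, a setting added after seeing the data. For IR-Ori against IR DESeq2 called 1. Leaving out 1 library gave 0 to 1 higher and 0 to 1 lower for IR against sham, 0 to 1 higher and 0 lower for IR-Ori against IR, and 0 of each for IR-Ori against sham. In the fit on the share, where 5 members were higher, leaving out 1 library gave 2 to 7 higher and 0 lower, and the fit of the 6 sham libraries alone gave 6. Those of the 6 IR or the 6 IR-Ori libraries alone gave 0 each, where 5 of 11991 and 0 of 11982 genes were called.

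Calls over all genes moved more. For IR against sham 1151 became 1872 with DESeq2, 594 and 602 with limma at pseudocounts of 1 and 0.1, 1875 with the share as a term, 1638 among libraries under 15%, 117 among libraries of 15% or more, and 581 to 1560 without 1 library. For IR-Ori against IR 526 became 1331 with DESeq2, 133 and 104 with limma, 172 with the 12 libraries alone, 290 with the share as a term, 7 among libraries of 15% or more, 1711 without both libraries over 40% and 152 to 1056 without 1 library. For IR-Ori against sham DESeq2 called 36 and the count stayed at 0 without any 1 library. On the share 6228 became 4836 in sham alone, 5 and 0 in IR and IR-Ori alone, and 4908 to 6258 without 1 library.

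Same-numbered libraries correlated at -0.441 to 0.418, and 2 of 18 matched best with their own number. Between IR and IR-Ori these correlations ran from 0.0124 to 0.418, and all values below 0 were of pairs with sham. Whether the replicate numbers pair IR and IR-Ori libraries is not settled by these values. With the replicate number as a block edgeR called 644, 163 and 3910 genes for IR against sham, IR-Ori against IR and the share, and 1 member (Meg3) on the share.

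Outside the fit with 1 slope per group, some directions turned, all of uncalled values except that of Snhg15 on the share. For IR-Ori against IR they were Neat1 (-0.18 with the share as a term, -0.26 from 15%), Malat1 (-0.020 without both libraries over 40%), Snhg12 (-0.043 and -0.058 with limma, -0.18 with the share), Snhg15 (-0.013 with limma at 0.1, -0.25 with the share) and Dleu2 (-0.051 from 15%). For IR-Ori against sham they were Meg3 (-0.070 from 15%) and Dleu2 (0.035 without both libraries). On the share they were Malat1 (0.039 with limma, 0.026 in sham and 0.084 in IR-Ori), Snhg1 (0.23 over the 3 groups, -0.095 in IR), Snhg15 (0.38 and called over the 3 groups, -0.090 in IR) and Mir22hg (-0.077 in IR-Ori). In the fit with 1 slope per group, the IR slopes of Snhg12 (-0.011 ± 0.13) and Gas5 (-0.0056 ± 0.12) were below 0 too. Both had been called higher over the 3 groups. Without 1 library the values ran from -0.13 to 0.36 for Malat1 and -0.69 to 0.024 for Meg3 in IR against sham. In IR-Ori against IR they ran from -0.088 to 0.26 for Neat1 and -0.13 to 0.39 for Malat1. They ran from -0.27 to 0.033 for Dleu2 in IR-Ori against sham and from -0.16 to 0.0049 for Malat1 on the share. The log2 ratio of Neat1 to Malat1 ran from 0.14 to 0.53, -0.34 to 0.059 and 0.054 to 0.30 in the 3 comparisons. Where the cause of a shift is not given by fewer libraries or genes, the cause was not tested. Meg3, with 16 to 125 counts a library, is the tested member most limited by depth.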
